A study of Mus musculus with 9 samples.

Results

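The tumour suppressor p53, made from Trp53, and the genes it is known to switch on after DNA damage were followed in the lungs of E18.5 mouse embryos, a stage close to birth. The 34 genes described here were chosen by symbol from a list of p53 regulators and targets, with earlier results of these data known. All 34 were found among the 27207 genes of the deposited table. All 34 also passed the filter on low counts, as did 19374 genes in all. They were placed in 5 roles: 4 regulators of p53, 7 genes of cell cycle arrest, 12 of apoptosis, 5 of DNA repair and nucleotide supply, and 6 of metabolism, stress and other functions.

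RNA of the whole lung was sequenced from 6 mutants with a conditional knockout (CKO) of Dnmt1, 3 of a weak and 3 of a strong phenotype, and from 3 wild type embryos. Per the labels, weak CKO lungs were hypoplastic only, and strong CKO lungs were hypoplastic with widespread bleeding into the parenchyma. Both CKO groups are labelled Dnmt1-D/D, with Tbx4-rtTA and a Tet-O-Cre transgene, and the controls are labelled wild type. Tbx4-rtTA is used to direct Cre to lung mesenchyme. Which cells of these whole lungs lost or kept Dnmt1 was not measured. Libraries are given below in the order MUT_W_265_2, MUT_W_268_3 and MUT_W_549_3 for weak CKO, MUT_S_265_5, MUT_S_268_4 and MUT_S_860_3 for strong CKO, and WT_265_1, WT_268_1 and WT_549_2 for wild type. Levels are CPM, counts scaled to library size with TMM factors, and the column totals ran from 25607595 to 33156732 counts.

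In an unstressed cell p53 protein is kept scarce by Mdm2 and its relative Mdm4, and damage kinases or the Arf product of Cdkn2a release it from them. Stabilised p53 binds a paired short motif and switches on genes that halt the cell cycle, start apoptosis, help repair and adjust metabolism, Mdm2 among them. Dnmt1 copies DNA methylation onto newly made strands, and p53-dependent cell death has been described in cultured mouse fibroblasts that lose it. The amount of Trp53 mRNA says little about p53 protein, which was not measured here.

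Promoter windows of the members, each running from 250 bases before to 50 bases after a start site, were taken from RefSeq on GRCm38.p6. They were found for 25 of the 34 members and numbered 35 with alternative starts. A search on both strands for the p53 half-site consensus, which reads the same on either strand, found it in 11 of the 35 member windows (31.4%), against 2745 of 32851 windows of all genes (8.36%). Paired half-sites with a spacer of 0 to 13 bases stood in 1 member window (2.86%) and in 24 windows of all genes (0.0731%). That window belonged to the upstream start of Cdkn1a, with half-sites beginning 73 and 51 bases before the start. The search allowed no mismatch, so a near match directly after the second of these half-sites was not counted. Half-sites are in capitals in the windows printed here, which show the arrest genes whose levels changed and which hold the motif. The members were listed for being regulators or targets of p53, and the 2 windows of Aen overlap and share 1 half-site. A match to the letters is a description of the sequence and not a measured binding site.

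Cdkn1a, upstream start, chr17:29090729-29091028, plus strand: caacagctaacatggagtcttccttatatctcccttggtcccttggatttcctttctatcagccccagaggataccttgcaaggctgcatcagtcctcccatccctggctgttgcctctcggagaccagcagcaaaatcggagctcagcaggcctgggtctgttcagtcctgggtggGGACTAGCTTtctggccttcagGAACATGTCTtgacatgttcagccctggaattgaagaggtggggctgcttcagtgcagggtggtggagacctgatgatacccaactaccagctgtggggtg
Ccng1, chr11:40755237-40755536, minus strand: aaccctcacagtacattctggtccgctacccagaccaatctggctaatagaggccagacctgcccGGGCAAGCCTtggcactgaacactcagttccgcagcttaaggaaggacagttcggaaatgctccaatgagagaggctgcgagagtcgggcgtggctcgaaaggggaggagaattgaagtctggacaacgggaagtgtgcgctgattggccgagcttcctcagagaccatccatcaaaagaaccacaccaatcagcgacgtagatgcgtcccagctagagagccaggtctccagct
Gadd45a, chr6:67037358-67037657, minus strand: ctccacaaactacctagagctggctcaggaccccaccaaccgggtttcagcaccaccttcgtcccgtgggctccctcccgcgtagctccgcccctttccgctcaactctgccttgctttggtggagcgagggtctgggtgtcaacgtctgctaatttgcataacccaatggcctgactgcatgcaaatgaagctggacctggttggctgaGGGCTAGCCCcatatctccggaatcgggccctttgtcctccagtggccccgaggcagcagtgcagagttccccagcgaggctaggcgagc

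The members also differed widely in how many CpG dinucleotides, the sites at which Dnmt1 can copy methylation, their windows held. Whether these CpGs were methylated was not measured here. The ratio of observed to expected CpGs had a median of 0.744 over the member windows (0.042 to 1.124), against 0.384 over all windows, and it lay above 0.6 in 24 of 35 member windows (68.6%) and in 35.8% of all windows. Among the 3 members that changed most, the window of Eda2r held 5 CpGs (ratio 0.264), and the Gdf15 windows held 7 (0.3) and 1 (0.042). The third, Cdkn2a, had 45 CpGs (1.039) at its upstream start and 12 (0.442) at its downstream start. The windows of Eda2r and of the upstream Gdf15 start are printed as the CpG-poor examples, with no half-site in either.

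Eda2r, chrX:97377160-97377459, minus strand: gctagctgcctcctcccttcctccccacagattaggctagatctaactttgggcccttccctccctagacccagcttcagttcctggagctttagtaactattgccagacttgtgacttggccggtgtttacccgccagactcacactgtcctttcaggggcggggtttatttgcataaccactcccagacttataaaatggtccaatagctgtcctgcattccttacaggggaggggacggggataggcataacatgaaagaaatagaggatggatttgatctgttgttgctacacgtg
Gdf15, upstream start, chr8:70632407-70632706, minus strand: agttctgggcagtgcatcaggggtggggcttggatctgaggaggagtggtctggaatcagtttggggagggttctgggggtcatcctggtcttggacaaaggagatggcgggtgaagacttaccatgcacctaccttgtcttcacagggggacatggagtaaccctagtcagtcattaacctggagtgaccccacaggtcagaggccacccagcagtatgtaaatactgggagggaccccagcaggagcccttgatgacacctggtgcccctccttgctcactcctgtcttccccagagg

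Against wild type, 8 of the 34 members rose in weak CKO lungs (23.5%) and 1 fell (2.94%), where 9.09% of all genes tested rose and 5.38% fell. In strong CKO lungs 11 members rose (32.4%) and 3 fell (8.82%), against 14.6% and 11% of all genes. A change was called at an adjusted p under 0.05 in edgeR's quasi-likelihood test, adjusted by Benjamini-Hochberg over all 19374 genes. The log2 change over the members had a median of 0.185 in weak CKO (-0.336 to 2.332) and 0.221 in strong CKO (-0.411 to 2.69), while the medians over all genes were -0.008 in weak CKO and -0.001 in strong CKO. Without MUT_W_268_3 the members called in weak CKO numbered 5 rather than 9 (5 also without MUT_W_265_2), and the calls over all genes 1308 rather than 2803. Without MUT_S_860_3 the members called in strong CKO numbered 9 rather than 14. Both comparisons used the same 3 wild type libraries. Counted by call, 7 members rose in both, 1 fell in both, 4 rose and 2 fell in strong CKO alone, 1 rose in weak CKO alone, and 19 were called in neither. Weak CKO libraries lay wholly above wild type for 10 members (29.4%) and wholly below for 5 (14.7%), against 17.7% and 13.8% of all genes. Strong CKO libraries lay wholly above for 15 (44.1%) and wholly below for 4 (11.8%), against 22.7% and 19% of all genes. These are bulk samples, in which fewer cells of a type and less RNA per cell cannot be told apart.

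**Figure D1:**
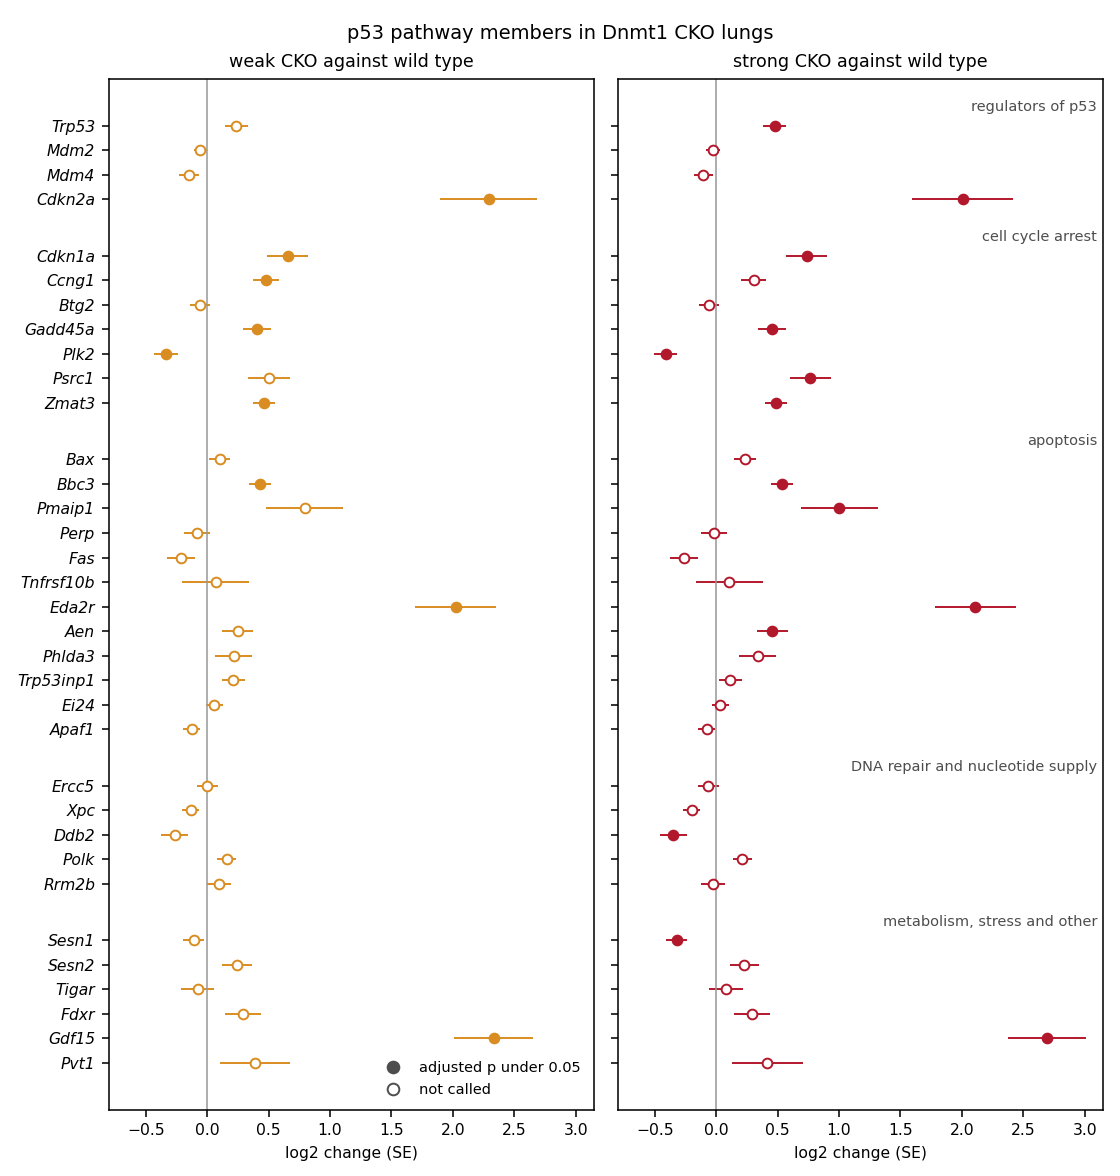
Log2 change of each of the 34 members in weak CKO (left) and strong CKO (right) against wild type, grouped by role. Points are edgeR log2 changes, bars are standard errors, and filled points had an adjusted p under 0.05. Cdkn2a, Eda2r and Gdf15 stand at or above 2 in both panels, while the 5 repair members lie between -0.347 and 0.214.

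Among the regulators, Cdkn2a rose in both mutant groups and Trp53 rose in strong CKO, while Mdm2 and Mdm4 were not called in either. Trp53 (ENSMUSG00000059552, chromosome 11, 69580359 to 69591873, plus strand, GRCm38) was at 60.4, 62.0 and 62.8 CPM in weak CKO, at 76.4, 66.2 and 75.7 CPM in strong CKO, and at 45.2, 56.7 and 55.1 CPM in wild type lungs. Every mutant library lay above every wild type library. The log2 change of Trp53 was 0.48 ± 0.09 in strong CKO (SE; adjusted p = 0.00429) and 0.24 ± 0.09 in weak CKO (adjusted p = 0.116).

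Cdkn2a encodes a pair of unrelated proteins from overlapping exons, the CDK inhibitor p16 and the Mdm2 antagonist Arf, and the table gives both as 1 row. The gene (ENSMUSG00000044303, chromosome 4, 89274471 to 89294653, minus strand) had 10, 13 and 14 counts in weak CKO, 8, 9 and 10 in strong CKO, and 2, 3 and 2 in wild type libraries. All mutant libraries were above all wild type libraries, at levels under 0.44 CPM. Summed counts gave a ratio of 5.13 in weak CKO (2.26 to 13.6, exact 95% interval for counting error only) and of 4.18 in strong CKO (1.77 to 11.4). The fitted log2 changes were 2.29 ± 0.40 in weak CKO (adjusted p = 0.00369) and 2.01 ± 0.41 in strong CKO (adjusted p = 0.00509). It was the lowest of the 34 members in wild type lungs per kilobase of exon.

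Mdm2, the ubiquitin ligase that degrades p53 and is itself a classical p53 target, was nearly level across the libraries. It had 106, 99.5 and 107 CPM in weak CKO lungs, 107, 104 and 109 CPM in strong CKO lungs, and 109, 107 and 109 CPM in wild type lungs. The weak CKO libraries lay just below wild type and the strong CKO libraries overlapped it. Its log2 change was -0.06 ± 0.05 in weak CKO (95% interval -0.18 to 0.06) and -0.03 ± 0.05 in strong CKO (-0.15 to 0.09), the tightest intervals among the regulators. Mdm4, which holds p53 inactive without degrading it, was between 218 and 231 CPM in weak CKO, between 221 and 243 CPM in strong CKO, and between 220 and 266 CPM in wild type lungs. The groups overlapped, and neither change of Mdm4 was called (-0.15 ± 0.08 in weak CKO, adjusted p = 0.259; -0.10 ± 0.08 in strong CKO, adjusted p = 0.38).

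Of the 7 arrest members 4 rose and 1 fell in weak CKO (median log2 change 0.465), and 4 rose and 1 fell in strong CKO (median 0.456). Of all genes 9.09% rose and 5.38% fell in weak CKO, and 14.6% rose and 11% fell in strong CKO. Cdkn1a, which encodes the CDK inhibitor p21 (ENSMUSG00000023067, chromosome 17, 29090976 to 29100727, plus strand), had 56.4, 57.4 and 52.1 CPM in weak CKO lungs, 66.7, 42.4 and 66.5 CPM in strong CKO lungs, and 31.5, 33.01 and 40.7 CPM in wild type lungs. The groups did not overlap, though MUT_S_268_4 lay close to the highest wild type library. Its log2 change was 0.66 ± 0.17 in weak CKO (adjusted p = 0.0298) and 0.74 ± 0.17 in strong CKO (adjusted p = 0.0109), calls that held at 11 of 16 alternative settings in weak CKO and at 15 in strong CKO. The weak CKO call of Cdkn1a was lost without any 1 of WT_265_1, WT_268_1, MUT_W_265_2 or MUT_W_268_3, with adjusted p from 0.0801 to 0.0989. Its exons share 273 bases with a gene on the other strand, and no source used here states whether counting kept to 1 strand.

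Zmat3, a p53 target that encodes an RNA-binding zinc finger protein, had 32.1, 32.1 and 26.1 CPM in weak CKO lungs, 31.6, 29.0 and 31.2 CPM in strong CKO lungs, and 22.1, 22.3 and 21.1 CPM in wild type lungs. Every mutant library exceeded every wild type library, and the wild type values were close to each other. Zmat3 rose by 0.47 ± 0.09 in weak CKO (adjusted p = 0.00799) and 0.49 ± 0.09 in strong CKO (adjusted p = 0.00345).

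Gadd45a, which encodes a stress sensor that acts in growth arrest, rose with smaller margins. It had 12.1, 12.4 and 9.68 CPM in weak CKO lungs, 11.4, 11.4 and 12.5 CPM in strong CKO lungs, and 9.04, 8.33 and 8.37 CPM in wild type lungs. The lowest weak CKO library, MUT_W_549_3, was just above the highest wild type library. The log2 changes were 0.41 ± 0.12 (adjusted p = 0.0422) in weak CKO and 0.46 ± 0.12 (adjusted p = 0.0164) in strong CKO. The weak CKO call held at 7 of 16 alternative settings, and the strong CKO call at 14, being lost without MUT_S_860_3 (adjusted p = 0.0576) among others. Gadd45a shares 337 exonic bases with a gene on the other strand.

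Ccng1, the gene of cyclin G1, was the member called in weak CKO alone by edgeR. It had 150, 150 and 129 CPM in weak CKO lungs, 127, 122 and 131 CPM in strong CKO lungs, and 120, 97.5 and 90.1 CPM in wild type lungs. All mutant libraries lay above all wild type libraries, MUT_S_268_4 and WT_265_1 by the smallest margin. In weak CKO Ccng1 changed by 0.48 ± 0.10 on the log2 scale (adjusted p = 0.014), and the value in strong CKO was 0.30 ± 0.10 (adjusted p = 0.0565). The difference between the mutant groups was not called (strong CKO over weak CKO -0.18 ± 0.10, 95% interval -0.41 to 0.06). Without MUT_W_265_2 or MUT_W_268_3 the weak CKO call was lost (adjusted p = 0.0551 without the first and 0.0561 without the second), and without WT_265_1 the strong CKO change reached 0.434 (adjusted p = 0.00602). The strong CKO change was also called by DESeq2 (0.296, adjusted p = 0.0456) and without MUT_W_549_3 (adjusted p = 0.0417).

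Psrc1, whose product binds microtubules of the spindle, was called in strong CKO alone by edgeR. It had 12.0, 14.6 and 13.5 CPM in weak CKO lungs, 18.6, 15.02 and 14.5 CPM in strong CKO lungs, and 7.40, 11.8 and 9.09 CPM in wild type lungs. The groups did not overlap in either comparison. Psrc1 had a log2 change of 0.77 ± 0.17 in strong CKO (adjusted p = 0.008) and 0.50 ± 0.17 in weak CKO (adjusted p = 0.0734). DESeq2 called Psrc1 in weak CKO too (0.495, adjusted p = 0.0401), as did the fit without WT_268_1 (0.696, adjusted p = 0.0223).

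Plk2, a stress-induced polo-like kinase and a p53 target, went the other way. It had 165, 179 and 185 CPM in weak CKO lungs, 152, 174 and 175 CPM in strong CKO lungs, and 193, 225 and 248 CPM in wild type lungs. Every mutant library lay below every wild type library. Plk2 fell by 0.34 ± 0.10 on the log2 scale in weak CKO (adjusted p = 0.0422) and by 0.41 ± 0.10 in strong CKO (adjusted p = 0.011). The weak CKO call held at 6 of 16 alternative settings, and the strong CKO call was lost without MUT_S_265_5 (adjusted p = 0.0563). Btg2, an antiproliferative cofactor and the most abundant member per kilobase of exon, had log2 changes of -0.06 ± 0.08 in both comparisons, with overlapping groups.

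**Figure D2:**
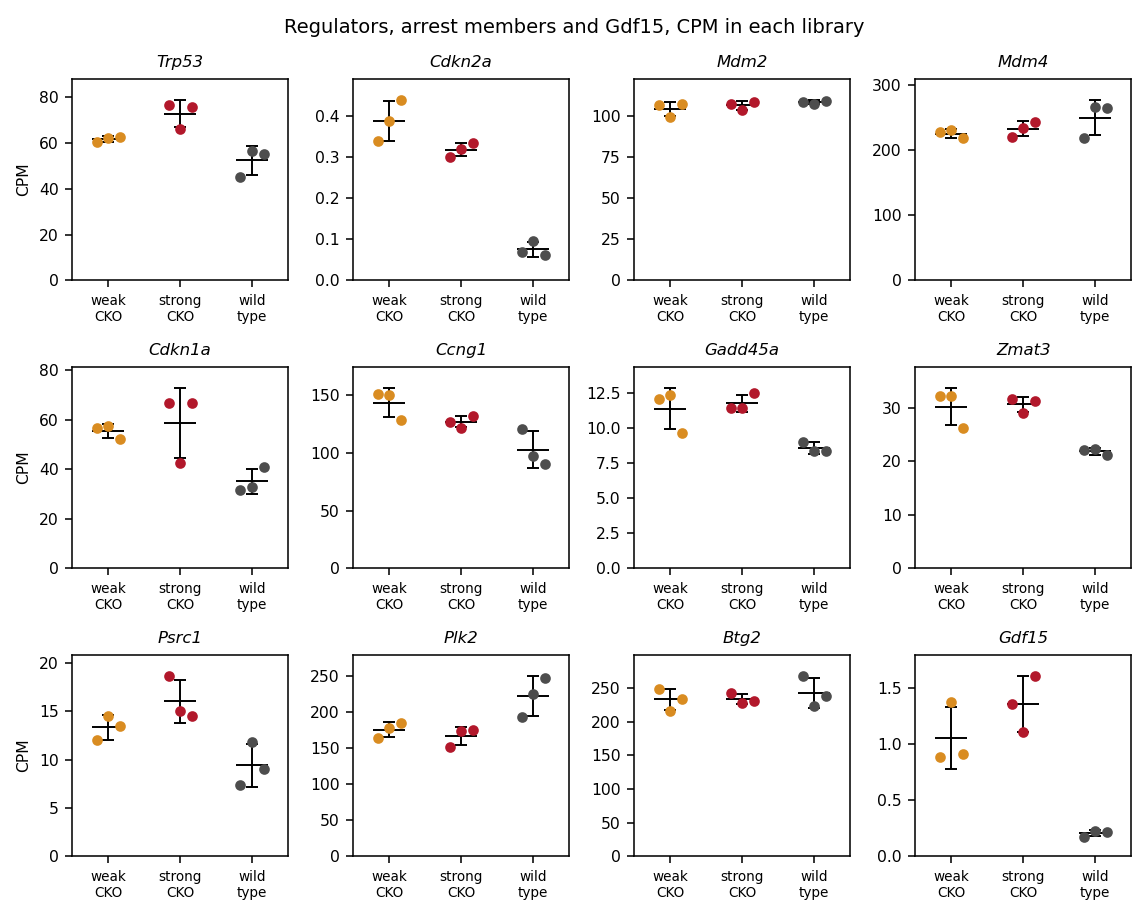
CPM of the 4 regulators, the 7 arrest members and Gdf15 in each library, for weak CKO, strong CKO and wild type. Points are libraries, long bars are means and whiskers are 1 SD (n = 3 each), and every axis starts at 0. Cdkn2a, Cdkn1a, Zmat3 and Gdf15 lie above wild type in all 6 mutant libraries, Plk2 lies below, and Mdm2 and Btg2 overlap or nearly so.

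Of the 12 apoptosis members 2 rose in weak CKO (median log2 change 0.158) and 4 rose in strong CKO (median 0.175). These are 16.7% and 33.3%, against 9.09% and 14.6% of all genes. In weak CKO 10 were not called, and in strong CKO 8. No apoptosis member fell in either comparison by edgeR or DESeq2; the lowest unadjusted p among those with negative changes was 0.0405, for Fas in strong CKO. Eda2r and Bbc3 rose in both groups, and Pmaip1 and Aen in strong CKO. Eda2r encodes the X-linked receptor of ectodysplasin A2 (ENSMUSG00000034457, chromosome X, 97333840 to 97377216, minus strand). It had 5.86, 8.56 and 3.23 CPM in weak CKO lungs, 6.25, 5.39 and 7.12 CPM in strong CKO lungs, and 1.81, 1.29 and 1.25 CPM in wild type lungs. Every mutant library exceeded every wild type library, and the weak CKO libraries spread widely. Its log2 change was 2.02 ± 0.33 in weak CKO (adjusted p = 0.00347) and 2.11 ± 0.33 in strong CKO (adjusted p = 0.00159). The fold was 4.06 in weak CKO and 4.32 in strong CKO.

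Bbc3, the gene of the BH3-only killer protein Puma (ENSMUSG00000002083, chromosome 7, 16308393 to 16318205, plus strand), had the smallest spread among the apoptosis members that changed in both groups. It had 16.8, 16.3 and 17.6 CPM in weak CKO lungs, 18.3, 16.9 and 19.4 CPM in strong CKO lungs, and 12.6, 11.8 and 13.3 CPM in wild type lungs. The mutant and wild type libraries did not overlap. Bbc3 rose by 0.43 ± 0.09 in weak CKO (adjusted p = 0.011) and 0.54 ± 0.09 in strong CKO (adjusted p = 0.00196).

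Pmaip1, the gene of the BH3-only protein Noxa, had 3.68, 3.22 and 1.66 CPM in weak CKO lungs, 3.58, 3.21 and 3.11 CPM in strong CKO lungs, and 1.75, 1.098 and 2.09 CPM in wild type lungs. MUT_W_549_3 of weak CKO lay within the wild type range, while the strong CKO libraries lay above it. Its log2 change was 1.003 ± 0.31 in strong CKO (adjusted p = 0.0374) and 0.79 ± 0.31 in weak CKO (adjusted p = 0.12). The strong CKO call held at 9 of 16 alternative settings, and without MUT_W_549_3 the weak CKO change reached 1.07 (adjusted p = 0.0244). Aen, the gene of an apoptosis-enhancing nuclease, had 13.8, 15.7 and 11.8 CPM in weak CKO lungs, 15.8, 14.3 and 17.7 CPM in strong CKO lungs, and 12.3, 11.1 and 11.4 CPM in wild type lungs. MUT_W_549_3 again lay within the wild type range. Aen rose by 0.46 ± 0.12 in strong CKO (adjusted p = 0.0217), a call that held at 11 of 16 alternative settings, and its change in weak CKO was 0.25 ± 0.12 (adjusted p = 0.222).

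The pore-forming effector Bax had 23.1, 26.6 and 26.5 CPM in weak CKO lungs, 27.0, 27.4 and 29.0 CPM in strong CKO lungs, and 23.9, 21.5 and 25.5 CPM in wild type lungs. Strong CKO libraries did not overlap wild type, but the change was not called (0.23 ± 0.09, adjusted p = 0.0767; weak CKO 0.10 ± 0.09, adjusted p = 0.494). Bax shares 192 exonic bases with a gene on the same strand. Fas, the death receptor, had log2 changes of -0.21 ± 0.11 in weak CKO (adjusted p = 0.252) and -0.26 ± 0.11 in strong CKO (adjusted p = 0.113), and its groups overlapped. Phlda3, which restrains Akt signalling, had changes of 0.21 ± 0.15 in weak CKO (adjusted p = 0.394) and 0.34 ± 0.15 in strong CKO (adjusted p = 0.128). Trp53inp1, a p53 cofactor and stress protein at 186 to 224 CPM in weak CKO, 189 to 201 CPM in strong CKO and 167 to 204 CPM in wild type lungs, had changes of 0.21 ± 0.09 in weak CKO (adjusted p = 0.16) and 0.11 ± 0.09 in strong CKO (adjusted p = 0.395).

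A further 3 members of the death machinery stayed within 0.13 of 0 on the log2 scale. Apaf1, the scaffold of the apoptosome, had changes of -0.13 ± 0.07 in weak CKO and -0.08 ± 0.07 in strong CKO. For Ei24, which encodes a membrane protein of the endoplasmic reticulum, they were 0.06 ± 0.07 in weak CKO and 0.03 ± 0.07 in strong CKO. Perp, the gene of a desmosomal membrane protein, had -0.08 ± 0.11 in weak CKO and -0.02 ± 0.11 in strong CKO. None of these was called.

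Tnfrsf10b, the mouse TRAIL receptor gene (chromosome 14, 69767472 to 69784411, plus strand), was highest in MUT_W_268_3, MUT_S_268_4 and WT_268_1, which share a middle number in their titles. It had 12.2, 19.7 and 14.7 CPM in weak CKO lungs, 13.3, 21.7 and 12.9 CPM in strong CKO lungs, and 12.0, 19.8 and 12.7 CPM in wild type lungs. The groups overlapped throughout. The log2 change was 0.07 ± 0.27 in weak CKO (adjusted p = 0.9) and 0.11 ± 0.27 in strong CKO (adjusted p = 0.803). No source used here says what the middle number of a title stands for, and this pattern was seen in the data and not tested.

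**Figure D3:**
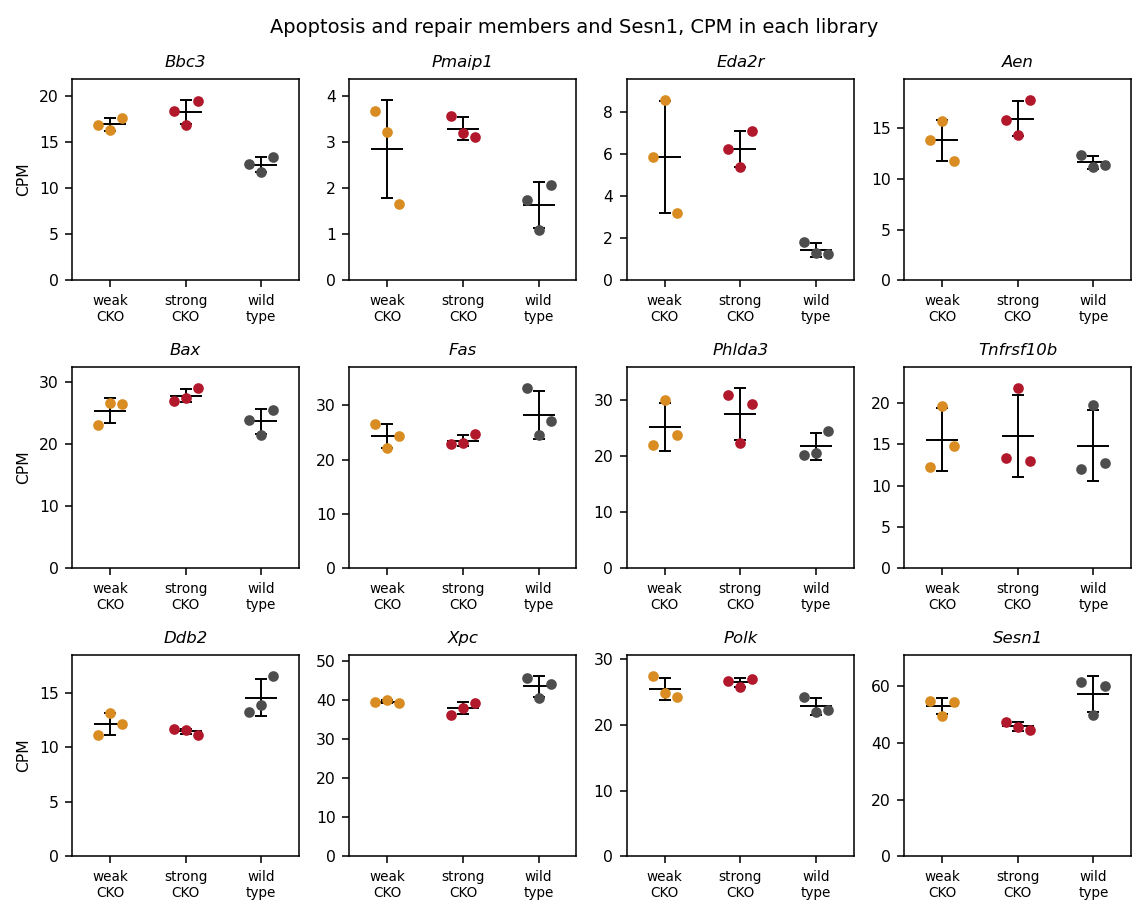
CPM of 8 apoptosis members, 3 repair members and Sesn1 in each library, for weak CKO, strong CKO and wild type. Points are libraries, long bars are means and whiskers are 1 SD (n = 3 each), and every axis starts at 0. Bbc3 and Eda2r are separated from wild type in both mutant groups, Pmaip1 and Aen in strong CKO, and Tnfrsf10b overlaps throughout.

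**Figure D4:**
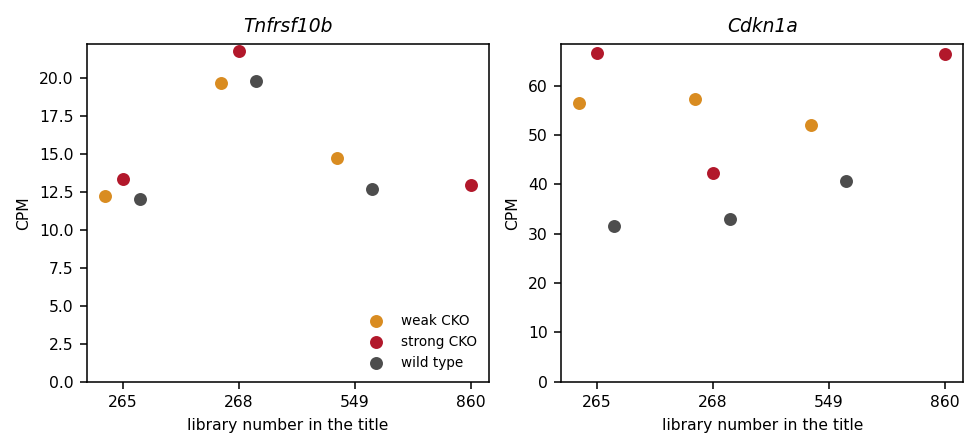
CPM of Tnfrsf10b (left) and Cdkn1a (right) by the library number in the title, coloured by group; each point is 1 library and both axes start at 0. The 3 Tnfrsf10b values above 19 belong to MUT_W_268_3, MUT_S_268_4 and WT_268_1, while for Cdkn1a the mutant library lies above wild type at each number that has both.

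Of the 5 repair and nucleotide supply members 0 were called in weak CKO in edgeR (median log2 change 0.003; 1 had an unadjusted p under 0.05, Ddb2, and DESeq2 called 0), and 1 fell in strong CKO (median -0.065). Over all genes 9.09% rose and 5.38% fell in weak CKO, and 14.6% rose and 11% fell in strong CKO. Ddb2, whose product recognises ultraviolet lesions in DNA, had 11.1, 13.2 and 12.1 CPM in weak CKO lungs, 11.7, 11.6 and 11.2 CPM in strong CKO lungs, and 13.3, 13.9 and 16.5 CPM in wild type lungs. All 6 mutant libraries were below all 3 wild type libraries, although MUT_W_268_3 nearly reached WT_265_1. Ddb2 fell by 0.35 ± 0.11 in strong CKO (adjusted p = 0.04), and the change in weak CKO was -0.26 ± 0.11 (adjusted p = 0.139). The strong CKO call held at 4 of 16 alternative settings, and Ddb2 shares 652 exonic bases with Acp2 on the other strand.

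Xpc, the damage sensor of global excision repair, had 39.5, 40.1 and 39.2 CPM in weak CKO lungs, 36.3, 38.0 and 39.4 CPM in strong CKO lungs, and 45.7, 40.6 and 44.1 CPM in wild type lungs. Its mutant libraries lay below wild type in both comparisons, and neither change was called (-0.13 ± 0.07 in weak CKO, adjusted p = 0.22; -0.20 ± 0.07 in strong CKO, adjusted p = 0.0528). With DESeq2 the strong CKO change of Xpc was -0.207 (adjusted p = 0.0326). Polk, a translesion polymerase, had changes of 0.16 ± 0.08 in weak CKO (adjusted p = 0.207) and 0.21 ± 0.08 in strong CKO (adjusted p = 0.065). For Ercc5, an excision repair nuclease, the change in weak CKO was 0.00 ± 0.09 (95% interval -0.19 to 0.19) and that in strong CKO -0.07 ± 0.09 (-0.26 to 0.13). Rrm2b, the p53-inducible subunit of ribonucleotide reductase, had changes of 0.10 ± 0.10 in weak CKO and -0.03 ± 0.10 in strong CKO, and 734 of its exonic bases are shared with a gene on the other strand.

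In the last role Gdf15 rose in both groups, Sesn1 fell in strong CKO, and the other 4 were not called. The shares over all genes were 9.09% up and 5.38% down in weak CKO, and 14.6% up and 11% down in strong CKO. Gdf15 encodes a secreted stress cytokine of the TGF-beta family (ENSMUSG00000038508, chromosome 8, 70629393 to 70632456, minus strand). It had 26, 46 and 29 counts (0.886, 1.37 and 0.909 CPM) in weak CKO, 36, 31 and 48 counts (1.36, 1.11 and 1.61 CPM) in strong CKO, and 5, 7 and 7 counts (0.175, 0.226 and 0.218 CPM) in wild type libraries. No mutant library came near the wild type range. Its log2 change was 2.33 ± 0.32 in weak CKO (adjusted p = 0.00103) and 2.69 ± 0.32 in strong CKO (adjusted p = 0.000273), which were the highest changes among the members in both comparisons.

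Sesn1 and Sesn2 encode sestrins, stress proteins that restrain mTORC1. Sesn1 had 54.7, 49.6 and 54.6 CPM in weak CKO lungs, 47.5, 45.4 and 44.4 CPM in strong CKO lungs, and 61.4, 49.9 and 60.1 CPM in wild type lungs. Strong CKO libraries lay below all others, and weak CKO overlapped wild type. Sesn1 fell by 0.32 ± 0.09 in strong CKO (adjusted p = 0.0208), and its change in weak CKO was -0.11 ± 0.09 (adjusted p = 0.447). That call was lost without any 1 of WT_265_1, WT_549_2, MUT_S_268_4 or MUT_S_860_3 (adjusted p from 0.0576 to 0.0761). Sesn2 had changes of 0.24 ± 0.12 in weak CKO (adjusted p = 0.214) and 0.23 ± 0.12 in strong CKO (adjusted p = 0.189), with overlapping groups.

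Fdxr, the mitochondrial ferredoxin reductase gene, had 9.64, 9.55 and 12.8 CPM in weak CKO lungs, 10.5, 10.7 and 10.7 CPM in strong CKO lungs, and 7.82, 8.04 and 10.2 CPM in wild type lungs. Its strong CKO libraries did not overlap wild type, but the change was not called (0.29 ± 0.15, adjusted p = 0.177; weak CKO 0.30 ± 0.15, adjusted p = 0.218). Tigar, a regulator of glycolysis, had changes of -0.08 ± 0.14 in weak CKO and 0.08 ± 0.14 in strong CKO. Pvt1, a long noncoding RNA gene, was at 1.35 to 2.51 CPM in weak CKO, 1.39 to 2.37 CPM in strong CKO and 1.20 to 1.64 CPM in wild type lungs. Its changes were 0.39 ± 0.28 in weak CKO (adjusted p = 0.409) and 0.42 ± 0.29 in strong CKO (adjusted p = 0.314), with the widest errors among members outside Cdkn2a, Eda2r, Gdf15 and Pmaip1.

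Set side by side, arrest had the highest median change and repair the lowest in both comparisons. Arrest members were called up in 4 of 7 in each comparison, apoptosis members in 2 of 12 in weak CKO and 4 of 12 in strong CKO, and repair members in 0 of 5 in both, beside 9.09% of all genes called up in weak CKO and 14.6% in strong CKO. The arrest rises include Zmat3 in both comparisons and Psrc1 in strong CKO, and placing these genes under arrest was a choice. In weak CKO the median was 0.465 for arrest, 0.158 for apoptosis and 0.003 for repair, and in strong CKO 0.456 for arrest, 0.175 for apoptosis and -0.065 for repair. The members and their roles were chosen with earlier results of these data known, and the difference between roles was not tested. Over the 17 settings tried, the number of arrest members that rose ran from 1 to 5 in weak CKO and from 2 to 5 in strong CKO. For apoptosis it ran from 2 to 3 in weak CKO and from 2 to 4 in strong CKO, and for repair it was 0 in weak CKO and 0 to 1 in strong CKO. Within each role the members did not move as one: Plk2 fell among arrest members that rose, and Fas, Perp and Apaf1 had negative changes beside Eda2r and Bbc3.

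The abundance of the members bears on how precisely each was measured. Per kilobase of merged exon, wild type levels ran from 88.4 ± 8.24 CPM for Btg2 through 49.4 ± 6.19 for Plk2 and 29.2 ± 4.48 for Ccng1 (SD, n = 3) to 0.246 ± 0.0536 for Eda2r, 0.209 ± 0.0338 for Pvt1, 0.111 ± 0.015 for Gdf15 and 0.0651 ± 0.0156 for Cdkn2a. The wild type libraries of Eda2r and Pvt1 overlapped on this scale, and those of Gdf15 and Cdkn2a did not. The 3 members with the highest changes thus stood at ranks 31, 33 and 34 of 34 in wild type lungs. In mutant lungs they remained low: Eda2r averaged 0.998 ± 0.453 in weak CKO and 1.06 ± 0.147 in strong CKO, and Gdf15 0.57 ± 0.148 in weak CKO and 0.732 ± 0.135 in strong CKO, in CPM per kilobase.

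Strong and weak CKO lungs were compared directly, and 0 of the 34 members were called by edgeR or DESeq2, where 0.00516% of all genes (1 gene) fell and 0% rose in edgeR. At an unadjusted p under 0.05 there were 2 members and 5.67% of all genes. These were Trp53 (strong CKO over weak CKO 0.24 ± 0.09, adjusted p = 0.873, 95% interval 0.04 to 0.44) and Sesn1 (-0.21 ± 0.09, adjusted p = 0.873, -0.40 to -0.02). For both, strong and weak CKO libraries did not overlap, nor did they for Bax (higher in strong CKO) and Cdkn2a (lower). Strong CKO thus lay wholly above weak CKO for 2 members and wholly below for 2 (5.88% each). Of the 19374 genes tested, 1298 lay wholly above and 1303 wholly below. The median change over the members was 0.035, with a range of -0.284 to 0.357. Intervals were wide for the low members, such as Gdf15 (-0.22 to 0.94) and Eda2r (-0.59 to 0.76), and narrower for Bbc3 (-0.09 to 0.30) and Zmat3 (-0.18 to 0.22). A member called in strong CKO alone or in weak CKO alone is therefore not shown to differ between the phenotypes.

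Libraries of 1 group differed in how far the called members moved. Of the 8 members that rose in weak CKO, MUT_W_549_3 was the lowest weak CKO library for 5 and MUT_W_268_3 the highest for 4. Of the 11 that rose in strong CKO, MUT_S_268_4 was the lowest for 7 and the highest for 0. Dnmt1 itself, the targeted gene, was at 59.1, 69.1 and 80.6 CPM in weak CKO lungs, 62.0, 78.7 and 65.1 CPM in strong CKO lungs, and 79.1, 121 and 97.2 CPM in wild type lungs. Only MUT_W_549_3 overlapped the wild type range. MUT_W_549_3 and MUT_S_268_4 were the mutant libraries with the most Dnmt1 of their groups. Those with the least, MUT_W_265_2 and MUT_S_265_5, were not most often the highest. MUT_W_265_2 was highest for 2 members, against 4 for MUT_W_268_3, and MUT_S_265_5 for 5, against 6 for MUT_S_860_3. A relation to Dnmt1 over these 6 libraries was not tested. Dnmt1 fell by 0.53 ± 0.17 in strong CKO (adjusted p = 0.0433), and its change in weak CKO was -0.51 ± 0.17 (adjusted p = 0.0727). The strong CKO call of Dnmt1 held at 7 of 16 alternative settings, and the weak CKO change was called at 3. The whole-gene count may include transcripts that lack the deleted exons.

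**Figure D5:**
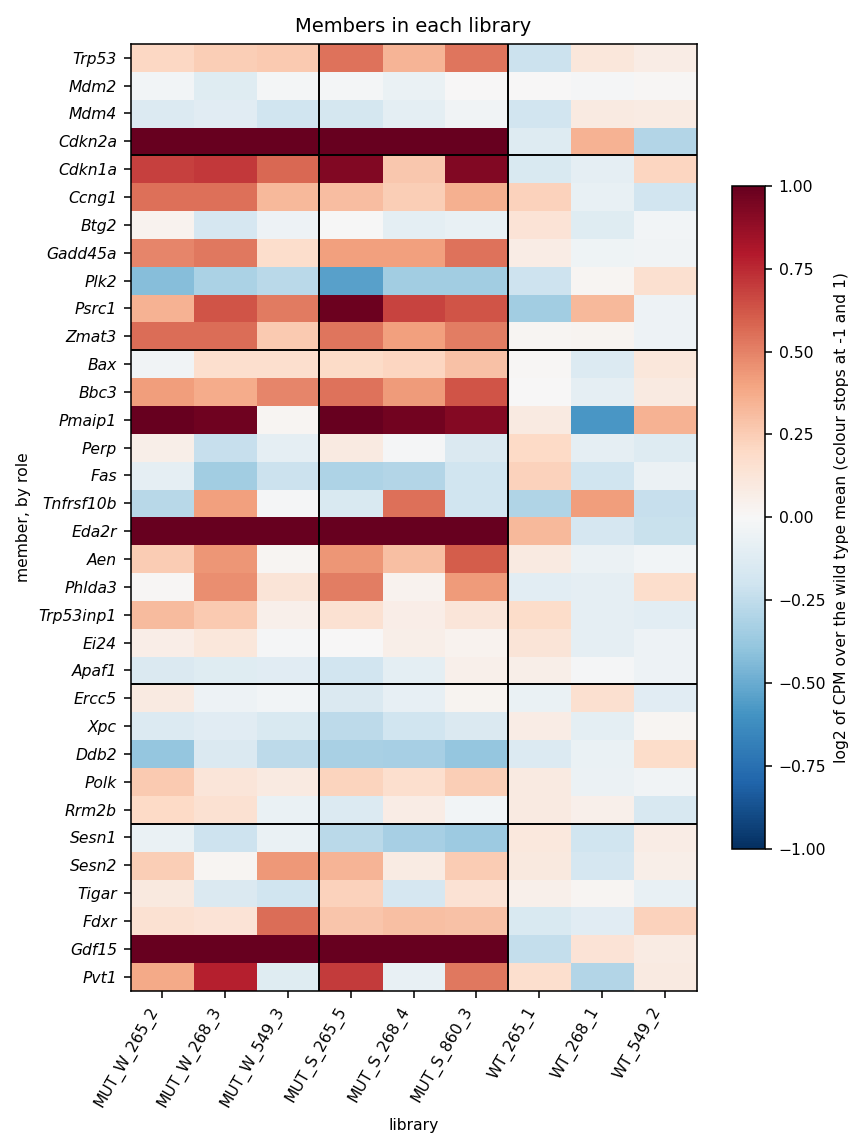
Log2 of each member's CPM over its wild type mean in all 9 libraries, with members ordered by role and libraries in 3 blocks, weak CKO, strong CKO and wild type. Red is above and blue below the wild type mean, and the colour stops at -1 and 1. Cdkn2a, Eda2r and Gdf15 are deep red in all 6 mutant libraries, MUT_W_549_3 and MUT_S_268_4 are paler than their neighbours for many members, and Tnfrsf10b is red in MUT_W_268_3, MUT_S_268_4 and WT_268_1.

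Other genes of the pathway were taken from lists that do not include the members, and their counts are read against all genes, of which 9.09% rose and 5.38% fell in weak CKO and 14.6% rose and 11% fell in strong CKO. Of 40 other p53 target genes tested, 3 rose and 1 fell in weak CKO (median 0.052), and 6 rose and 3 fell in strong CKO (median 0.123), shares near those of all genes for the rises. Among them were Ddit4, an inhibitor of mTORC1 (0.41 ± 0.09 in weak CKO, adjusted p = 0.0121; 0.52 ± 0.09 in strong CKO, adjusted p = 0.00207), the cytokine gene Lif (0.75 ± 0.21 in weak CKO, adjusted p = 0.0392; 0.96 ± 0.21 in strong CKO, adjusted p = 0.00826) and Abhd4, which fell in both (-0.29 ± 0.07 in weak CKO, adjusted p = 0.027; -0.37 ± 0.07 in strong CKO, adjusted p = 0.00518). Ckap2, a spindle protein gene, rose in strong CKO (0.48 ± 0.11, adjusted p = 0.00906). The weak CKO call of Lif held at 5 of 16 alternative settings.

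Upstream of p53, 1 of 20 damage signalling genes rose in weak CKO, and 1 rose and 1 fell in strong CKO. Their median changes were 0.022 in weak CKO and 0.074 in strong CKO. Rises over all genes were 9.09% in weak CKO and 14.6% in strong CKO, and the difference from these small counts was not tested. Prkdc, the catalytic subunit of DNA-dependent protein kinase, rose in both (0.37 ± 0.09 in weak CKO, adjusted p = 0.0252; 0.29 ± 0.09 in strong CKO, adjusted p = 0.0423), and Hipk2, a kinase that phosphorylates p53, fell in strong CKO (-0.72 ± 0.17, adjusted p = 0.0153). The Prkdc call held at 12 of 16 alternative settings in weak CKO and at 7 of 16 in strong CKO. Of 8 p53 family members and cofactors 2 rose in weak CKO, and 2 rose and 1 fell in strong CKO. The p53 relatives Trp63 (1.62 ± 0.28 in weak CKO, adjusted p = 0.00387; 1.59 ± 0.28 in strong CKO, adjusted p = 0.00261) and Trp73 (0.84 ± 0.17 in weak CKO, adjusted p = 0.00882; 1.08 ± 0.17 in strong CKO, adjusted p = 0.00134) rose in both, and the acetyltransferase gene Ep300 fell in strong CKO (-0.30 ± 0.07, adjusted p = 0.0124). Trp63 is a gene of airway basal cells and Trp73 of multiciliated cells. Beside them, 4 of 6 airway epithelium markers rose in each comparison, with a summed level of 2398 to 3489 CPM in weak CKO, 2595 to 4202 CPM in strong CKO and 1155 to 1830 CPM in wild type lungs, and their part in the result was not tested.

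Downstream, among the other apoptosis machinery genes, the survival gene Bcl2l1 fell in both comparisons (-0.30 ± 0.07 in weak CKO, adjusted p = 0.0187; -0.23 ± 0.07 in strong CKO, adjusted p = 0.0331), calls that held at 13 of 16 alternative settings in weak CKO and at 7 in strong CKO. In strong CKO the BH3-only gene Bid rose (0.93 ± 0.19, adjusted p = 0.00622) and Casp6 fell (-0.33 ± 0.08, adjusted p = 0.0119). Of 8 other CDK inhibitors and pocket proteins 0 were called in weak CKO by edgeR or DESeq2 (2 at an unadjusted p under 0.05), and 2 rose and 2 fell in strong CKO, where Cdkn1c (0.37 ± 0.10, adjusted p = 0.0199) and Cdkn2c (0.32 ± 0.10, adjusted p = 0.0427) rose and Cdkn1b (-0.38 ± 0.11, adjusted p = 0.0272) and Rbl2 (-0.24 ± 0.07, adjusted p = 0.0312) fell. These calls held at 13, 8, 9 and 8 of 16 alternative settings for Cdkn1c, Cdkn2c, Cdkn1b and Rbl2. Of 23 cell cycle genes known to be lowered through p53 and p21, 1 rose in weak CKO (median -0.051) and 3 rose in strong CKO (median 0.191), while 0 fell in either by edgeR, by DESeq2 or at an unadjusted p under 0.05. Those that rose were Cdc20 (0.35 ± 0.10 in weak CKO, adjusted p = 0.0476; 0.80 ± 0.10 in strong CKO, adjusted p = 0.000489), which activates the anaphase-promoting complex, and in strong CKO the mitotic kinase gene Aurka (0.48 ± 0.11, adjusted p = 0.009) and the mitotic kinesin gene Kif20a (0.45 ± 0.13, adjusted p = 0.0347). The weak CKO call of Cdc20 held at 6 of 16 alternative settings and the strong CKO call of Kif20a at 11. Of 18 other excision repair and translesion genes 1 rose in weak CKO and 2 in strong CKO. These were the centrin gene Cetn2 in both (0.28 ± 0.08 in each) and the polymerase gene Polh in strong CKO (0.33 ± 0.08, adjusted p = 0.012). Such small counts were not tested against the shares of rises over all genes (9.09% in weak CKO and 14.6% in strong CKO). The Cetn2 call held at 8 of 16 alternative settings in weak CKO and at 12 in strong CKO.

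Marker genes of several lung cell types also differed between the groups. Their calls stand beside 9.09% of all genes up and 5.38% down in weak CKO, and 14.6% up and 11% down in strong CKO. Of 8 macrophage markers 5 rose in weak CKO and 6 in strong CKO, and they summed to 306 to 372 CPM in weak CKO, 303 to 394 CPM in strong CKO and 177 to 242 CPM in wild type lungs. Of 8 lung mesenchyme markers 4 fell in weak CKO (2113 to 2381 CPM) and 7 in strong CKO (2136 to 2327 CPM, against 2343 to 2697 CPM in wild type). Of 8 endothelial markers 4 fell in weak CKO (2057 to 2147 CPM) and 8 in strong CKO (1541 to 1932 CPM, against 2347 to 3006 CPM in wild type). In strong CKO 5 of 6 alveolar type 2 markers fell (10510 to 12650 CPM, against 13430 to 19140 CPM in wild type), as did 2 of 6 alveolar type 1 markers (3017 to 3253 CPM, against 3463 to 4494 CPM). In weak CKO edgeR called 0 markers of either alveolar list, and DESeq2 called 1 alveolar type 1 marker lower. The 8 erythroid markers summed to 3467 to 4054 CPM in weak CKO, 6247 to 11490 CPM in strong CKO and 3634 to 6887 CPM in wild type lungs. Against wild type, 0 of these 8 were called in either mutant group by edgeR or DESeq2. At an unadjusted p under 0.05 in edgeR, 2 were lower in weak CKO and 1 was higher in strong CKO. The 6 neutrophil markers summed to 18.2 to 35.1 CPM in weak CKO, 18.1 to 28.3 CPM in strong CKO and 23.9 to 59.0 CPM in wild type lungs, with 1 of them at 0 in at least 1 library. Only 4 of these passed the filter on low counts, and 0 were called against wild type by edgeR or DESeq2. The part of these cell types in the changes of the members was not tested.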

How the data were processed

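RNA from 9 whole E18.5 mouse lungs was sequenced, per the labels' protocols, with 75 nt single reads (50 M stated per library). STAR, edgeR 3.28.1, Trimmomatic 0.36, cutadapt 2.5, FastQC 0.11.8 and the build GRCm38.p6 are named in the submitters' processing notes. The counting tool and its settings for strand and for multiply mapped reads are not given in the sources used here. Members that share exons with another gene are therefore uncertain. The whole-number columns of the table deposited by the authors hold raw counts per gene. A second set of columns holds RPKM values per the file headers, which imply a library size of 1.03 to 1.13 column totals and a gene length deposited by the authors (ratio to merged exon length 0.97 to 3.95 for the members). Levels between genes were therefore given as CPM per kilobase of merged exon of the GENCODE M21 annotation, which also gave the gene coordinates on GRCm38.

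The counts of 19374 of 27207 genes that passed filterByExpr were fitted with edgeR 4.0.16 in R 4.3.3: 1 mean per group over all 9 libraries, TMM factors of 0.938 to 1.04, a robust quasi-likelihood fit and two-sided F tests. Adjustment of p-values was by Benjamini-Hochberg over all tested genes, and the threshold was 0.05. Standard errors come from the unshrunk log2 change and its F statistic, and 95% intervals use the moderated degrees of freedom. The common biological coefficient of variation was 0.15. The code was tested on simulated data. Intervals on summed counts are exact and cover counting error only. The labels do not say that the lungs came from separate litters, and a p-value then reflects only how these 9 samples vary. Exact permutation of 3 libraries against 3 cannot give p below 0.1 and was not used.

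Alternatives were DESeq2 1.42.0, size factors by RLE, no filter, limma 3.58.1 on log2(RPKM + 1) and log2(RPKM + 0.1), only the groups compared, the library number as a block, and each library left out. Named were all 34 members, Dnmt1, and up to 4 called genes with the smallest adjusted p of each other pathway list. The members, their roles and the lists were chosen with earlier results of these data known. Of 139 other pathway genes listed, 138 were in the table. The result of 1 gene of the other apoptosis machinery list, and the counts of calls of that list, are not reported here. Cell type lists are given by counts of calls and summed CPM.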

Additional observations from a re-analysis of the deposited data

How the results depend on the processing

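Of the 9 member calls in weak CKO, 5 held at all 16 alternatives (Cdkn2a, Zmat3, Bbc3, Eda2r and Gdf15). Of the 14 in strong CKO, 7 did (those 5, Trp53 and Psrc1). No called member changed direction at any alternative. Leaving out 1 library at a time, the members called numbered 5 to 9 in weak CKO, with 5 without MUT_W_265_2 or MUT_W_268_3, and 9 to 14 in strong CKO, with 9 without MUT_S_860_3. Over all genes the calls then numbered 1308 to 2803 in weak CKO (2803 with every library; 1755 without WT_549_2, 1416 without MUT_W_265_2 and 1308 without MUT_W_268_3). They numbered 3096 to 4949 in strong CKO (4969 with every library; 3096 without MUT_S_265_5) and 1 to 4 between strong and weak CKO (1 with every library). For strong against weak CKO, the calls over all genes were 14 with DESeq2, 2 with limma on log2(RPKM + 0.1), 5 with only the groups compared and 3 with the library number as a replicate block. Members called there were 0 at every alternative.

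The library numbers were not used to pair the samples in the reported fit. Over 7 pairs with the same number, deviations from the group mean correlated at -0.087 to 0.346 (median 0.112). Over 20 other pairs they correlated at -0.38 to 0.19 (median 0.01). These values do not settle whether libraries with the same number are related. With the replicate block, which leaves MUT_S_860_3 alone in its block, 9 members were called in weak CKO and 10 in strong CKO. Calls over all genes were then 3926 in weak CKO (2803 without the block) and 4450 in strong CKO (4969 without it). Calls lost under the block were Cdkn1a in weak CKO (adjusted p = 0.0532) and in strong CKO Cdkn1a (0.0792), Gadd45a (0.0748), Pmaip1 (0.115), Aen (0.113) and Ddb2 (0.14). Trp53inp1 in weak CKO (0.0449) and Fdxr in strong CKO (0.0252) were called with the block and not in the reported fit.

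Members at low levels depend on the scale: on log2(RPKM + 1) the changes in weak CKO were 0.211 for Cdkn2a, 0.461 for Eda2r and 0.32 for Gdf15, since the pseudocount shrinks low values. Cdkn2a rests on 7 wild type counts in all and Gdf15 on 19. Other calls that appeared at 1 or more alternatives were Mdm4, Psrc1 and Pmaip1 in weak CKO and Ccng1, Fas, Phlda3, Xpc and Polk in strong CKO. The cause of these shifts was not tested.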
